A study of Drosophila melanogaster with 6 samples.

Results

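The cytochrome P450 genes of *Drosophila melanogaster* were taken as all genes whose FlyBase symbol starts with Cyp followed by a digit. This rule selected 86 of the 17489 genes in the count tables. Of these, 84 encode P450 enzymes and are described below. The other 2, *Cyp1* and *Cyp40*, share the prefix but encode cyclophilins, which are peptidyl-prolyl isomerases, and were set apart. No measured value was used in the choice.

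RNA was sequenced from male flies fed a control diet (5% sucrose) or a sugar diet (30% sucrose), with 3 biological replicates per diet and 300 heads per replicate. The diets were given from day 5 to day 12 of age, for 7 days. Both groups had the genotype Gr5a:Pclc429>UAS-Rpl3-3XFLAG, so the control flies carried the *Pcl* allele too, and no library from flies with intact *Pcl* is described here. *Gr5a-GAL4* drives a FLAG-tagged ribosomal protein in sweet taste neurons, from which ribosome-bound RNA can be purified with beads, and the comparison asks what the diet changes when *Pcl*, an accessory factor of Polycomb Repressive Complex 2, is mutated. The labels name the source of every library as *Gr5a* sensory neurons and do not say which part of the lysate was sequenced.

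P450s are haem enzymes that insert oxygen into fats, hormones and foreign chemicals. Most insect P450s sit in the endoplasmic reticulum and take electrons from the reductase Cpr, whereas those of the mitochondrial clan use a ferredoxin system. Insects use them to clear plant toxins and insecticides, to make and inactivate the steroid hormone ecdysone, to form the waxy hydrocarbons of the cuticle and to process odorants and pheromones. They are grouped by sequence into clans. By family number, 39 of the 84 genes belong to the CYP3 clan, which holds most of the known detoxification enzymes, 32 to the CYP4 clan, 9 to the mitochondrial clan and 4 to the CYP2 clan.

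The P450 genes are spread unevenly over the genome. In the dm6 assembly, 34 are on chromosome arm 2R, 16 on 3R, 14 on 2L, 14 on X and 6 on 3L. Of the 84 genes, 44 lie within 5000 bases of another P450 gene, and 2 are annotated as pseudogenes. The exons of 20 overlap exons of a gene on the opposite strand.

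Library depth ranged from 12617127 to 24076315 sense-strand counts, of which 25631 to 65312 fell on P450 genes. Between 74 and 80 P450 genes had more than 3 counts per library, the floor used here for detection. Counts were divided by DESeq2 size factors to give normalized counts. The markers of the labelled cells were near the floor: the 9 *Gr5a* neuron markers summed to between 9.3 and 46.9 normalized counts per library, *Gr64b*, *Gr64c*, *Gr64d* and *Gr64e* were at 0 in all 6 libraries, and the photoreceptor markers summed to between 424360 and 645893. All 4 neuron markers found, all 8 photoreceptor markers and all 4 glia markers passed an equivalence test for no change with diet beyond 1.5-fold. Of all genes with a count 40.6% passed it. Among all genes averaging 50 or more normalized counts, as these markers did, 72.6% passed. Control replicate 2 stood apart in the yolk protein genes *Yp1*, *Yp2* and *Yp3*, markers of female tissues. *Yp1* had 21747 normalized counts there and 19.4 to 2363 in the other libraries of these male flies, whereas the 4 eggshell genes of the same list had at most 22.7 in any library. Without that library the same 4 P450 genes described below were called higher, and *Cyp310a1* joined them. Markers of other tissues also changed, and their values are given with the P450 genes they moved with. In bulk RNA, fewer cells of a type and less RNA per cell cannot be told apart.

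P450 genes were found at widely different levels in the control diet libraries. Levels are given as RPKM, the sense counts scaled to exon length in kilobases and to library size. The median P450 gene had 4.46 RPKM, against 2.83 for all genes with a count. There were 26 genes over 10 RPKM, 33 between 1 and 10, and 25 under 1. The 10 highest genes together made up 56% of the summed P450 RPKM.

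**Figure D1:**
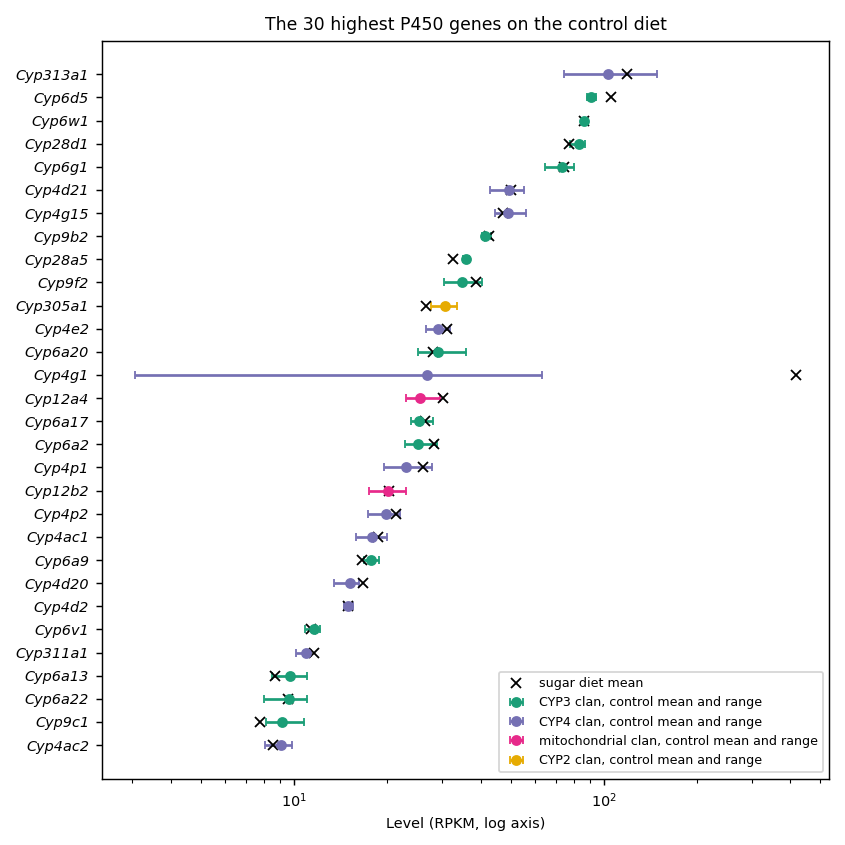
Control diet level of the 30 highest P450 genes in RPKM on a log axis. Filled points show the mean of 3 control diet libraries, coloured by clan, bars show the lowest and highest library, and crosses show the sugar diet mean. *Cyp313a1* was first on the control diet, and *Cyp4g1*, with the widest bar, moved from rank 14 to rank 1 on the sugar diet.

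*Cyp313a1* of the CYP4 clan had the highest mean, with 103.3 ± 39.4 RPKM (SD, n = 3) on the control diet. Its normalized counts were 2658, 2309 and 4159 on the control diet and 2730, 3635 and 3258 on the sugar diet. One control library stood above all the others, and the groups overlapped. Next came 3 CYP3 clan genes. *Cyp6d5* had 91.0 ± 3.10 RPKM, *Cyp6w1* had 86.2 ± 1.32 RPKM and *Cyp28d1* had 83.4 ± 4.86 RPKM. *Cyp6g1*, whose overexpression gives flies resistance to DDT and imidacloprid, came after them with 73.0 ± 7.97 RPKM. The range of *Cyp313a1* over the control libraries overlapped that of *Cyp6d5*, so the order of these neighbours was not resolved. The ranges of *Cyp6d5* and *Cyp6w1* did not overlap.

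*Cyp4d21*, also known as *sxe1*, which is sex-biased and has a role in male courtship, had 49.3 ± 6.18 RPKM. *Cyp4g15*, the paralogue of *Cyp4g1* that is known from the nervous system, had 49.1 ± 6.16 RPKM. *Cyp9b2* followed with 41.5 ± 1.56 RPKM, *Cyp28a5* with 35.9 ± 0.872 RPKM and *Cyp9f2* with 35.0 ± 4.96 RPKM. The ranges of *Cyp4d21* and *Cyp4g15* overlapped, as did those of *Cyp28a5* and *Cyp9f2*. By DESeq2 none of the 10 was called changed, and all 10 passed the equivalence test, against 72.6% of all genes averaging 50 or more normalized counts. *Cyp28a5* was called lower by edgeR, and *Cyp28a5* and *Cyp28d1* were called lower by DESeq2 without sugar replicate 1, as given below.

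At the other end of the range, 8 P450 genes had at most 10 counts in every library and were close to the floor. These were *Cyp12d1-d*, *Cyp303a1*, *Cyp304a1*, *Cyp313a2*, *Cyp313a3*, *Cyp313a5*, *Cyp316a1* and *Cyp6a19*. Of these, *Cyp313a2*, *Cyp313a3* and *Cyp313a5* are neighbours on 3R, at 0.05 to 0.10 RPKM, while *Cyp313a1* of the same family was the highest P450 gene of all.

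Neighbouring P450 genes often differed in level. The 44 genes with a close neighbour formed 16 runs. The longest run, on 2R from 14871366 to 14889010 (dm6), held 7 genes of the *Cyp6a* subfamily. Within it *Cyp6a20* had 29.1 RPKM on the control diet, *Cyp6a17* 25.3, *Cyp6a9* 17.7, *Cyp6a22* 9.63, *Cyp6a23* 7.81, *Cyp6a8* 5.82 and *Cyp6a19* 0.221. All but *Cyp6a19* passed the equivalence test for the diet. In a run of 3 genes, *Cyp6g1* had 73.0 RPKM, its neighbour *Cyp6t3* 1.51 and *Cyp6g2* 0.485. In a pair on 2L, *Cyp28d1* had 83.4 RPKM and *Cyp28d2* 2.38. DESeq2 called none of the 44 genes in runs changed with all libraries in the fit, and 21 passed the equivalence test. The shares called over all genes are given below, and genes in runs were not tested against the others.

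Few P450 genes were higher on the sugar diet. In a DESeq2 Wald test on sense counts with q < 0.1, 4 of the 83 genes tested (4.82%) were higher on the sugar diet, against 14% of all genes tested. None of the 83 was lower in that test, against 0.54% of all genes. At an unadjusted p under 0.05, 2 of 83 P450 genes were lower by DESeq2, against 2.03% of all genes, and 2 of 74 by edgeR, against 2.55%. By edgeR's quasi-likelihood test, 4 of 74 P450 genes were higher, against 13.6% of all genes, and 1 lower, against 0.34%. *Cyp12d1-d* had no count in any library and was not tested. The median log2 fold change, sugar over control, was −0.03 over the P450 genes and 0.02 over all genes tested, with 35 P450 genes above zero and 48 below.

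**Figure D2:**
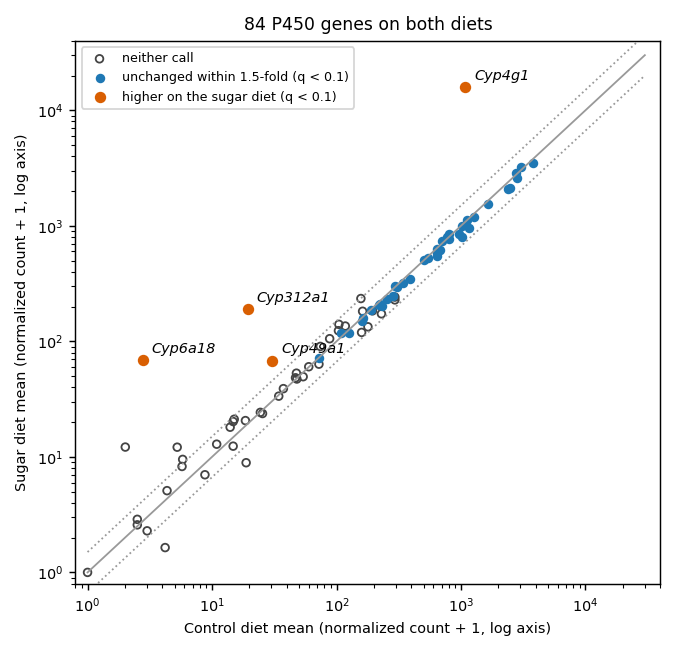
Mean normalized count plus 1 of the 84 P450 genes, control diet on the horizontal axis and sugar diet on the vertical axis, both logarithmic. The solid line marks equal values and the dotted lines a 1.5-fold difference. The 4 genes called higher lie above the upper dotted line, and the 39 genes that passed the equivalence test lie between the dotted lines.

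A missed threshold does not show that a gene stayed the same, so an equivalence test was used with a margin of 1.5-fold. By this test 39 of 83 P450 genes (47%) stayed within the margin at q < 0.1, against 40.6% of all genes with a count. The remaining 40 genes met neither call. For 34 of them the 95% interval of the change reached a 1.5-fold rise, and for 32 it reached a 1.5-fold fall. Their median standard error was 0.51 on the log2 scale, against 0.15 for the genes shown to be unchanged. Of the 26 genes over 10 RPKM, 25 were unchanged, with log2 fold changes from −0.34 to 0.11, and 1, *Cyp4g1*, rose. Between 1 and 10 RPKM, 14 of 33 were unchanged and none was called. Under 1 RPKM, 3 of 25 rose and 22 met neither call, among them *Cyp12d1-d*, which was not tested. The median standard error was 0.79 on the log2 scale under 1 RPKM, 0.27 between 1 and 10, and 0.14 over 10. Shares of all genes were not counted in these RPKM bands.

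When only genes averaging 50 or more normalized counts were kept, the counts were 2 of 57 P450 genes higher (3.51%) and 594 of 9019 genes in all (6.59%). In that range 68.4% of P450 genes and 72.6% of all genes were unchanged. By clan, with genes of any level kept, 2 of 32 CYP4 genes, 1 of 39 CYP3 genes, 1 of 8 tested mitochondrial genes and 0 of 4 CYP2 genes rose. The share over all genes tested was 14%.

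*Cyp4g1* was the P450 gene with the largest gain in counts. It encodes the enzyme of oenocytes, the hydrocarbon-making cells below the cuticle, that performs the last step of cuticular hydrocarbon synthesis. The gene is a single exon block on chromosome X (467057 to 469335, minus strand, dm6). It had 627, 133 and 2482 normalized counts on the control diet and 10514, 10292 and 26489 on the sugar diet. Every sugar library was above every control library, and the control libraries differed widely among themselves. The log2 fold change was 3.87 ± 1.07 (SE, DESeq2 q = 0.00323, edgeR q = 0.0272, n = 3 per diet). With one library left out at a time it stayed between 3.27 and 5.36.

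*Cyp4g1* alone took a large share of all P450 counts. Its share was 1.59, 0.34 and 5.93% in the control libraries and 20.6, 23.2 and 41.9% in the sugar libraries. The summed P450 normalized count was 39373, 38759 and 41870 on the control diet and 51141, 44328 and 63257 on the sugar diet. All sugar sums were above all control sums, 1.32-fold on average (exact permutation test, two-sided, p = 0.1, the smallest value that 3 against 3 libraries allow). Without *Cyp4g1* the control sums averaged 38920 ± 410 and the sugar sums 37143 ± 3311 (SD, n = 3, exact permutation p = 0.5), and the direction was reversed.

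The paralogue *Cyp4g15* did not follow *Cyp4g1*. It had 2321, 2231 and 2554 normalized counts on the control diet and 1964, 2084 and 2169 on the sugar diet. All sugar values were slightly below all control values, but the change was −0.19 ± 0.10 on the log2 scale (DESeq2 q = 0.297), and the gene passed the equivalence test (q = 0.000371).

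*Cyp312a1*, a CYP4 clan gene on chromosome arm 3L (18128940 to 18132689, minus strand, dm6), rose from a low level. Its normalized counts were 23.4, 16.6 and 14.8 on the control diet and 93.0, 106.9 and 369.0 on the sugar diet. The groups did not overlap, and the third sugar library was well above the other 2. The log2 fold change was 3.36 ± 0.52 (DESeq2 q = 4.04e-09), and 2.43 without that library, where it was still called.

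*Cyp6a18*, a CYP3 clan gene on chromosome arm 3R (27478675 to 27482904, plus strand, dm6), was the only P450 gene detected on the sugar diet alone, that is with at most 3 counts in every control library and more than 3 in every sugar library. Of all genes with a count, 6.03% met the same condition. With a floor of 1 count, or with unstranded counts, no P450 gene met it. Its raw counts were 3, 0 and 3 on the control diet and 54, 44 and 116 on the sugar diet. The sums of 6 and 214 counts gave a ratio of 33.2 after scaling, with a 95% counting interval of 15 to 91.5. The fitted log2 fold change was 5.11 ± 0.81 (DESeq2 q = 8.96e-09), which depends on the near-zero control counts. Even on the sugar diet its level was 0.984 RPKM.

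*Cyp49a1*, a mitochondrial clan gene on chromosome arm 2R (10449350 to 10458892, minus strand, dm6), rose least among the genes called. Its normalized counts were 28.9, 33.3 and 26.6 on the control diet and 47.4, 56.2 and 97.8 on the sugar diet. The groups did not overlap, and the third sugar library was again the highest. The log2 fold change was 1.19 ± 0.43 (DESeq2 q = 0.0407). The call was lost without control replicate 1 (1.17, q = 0.166), without control replicate 3 (1.11, q = 0.163) and without sugar replicate 3 (0.82, q = 0.365). More reads lay on the opposite strand of this gene than on its own, with 546 such counts over the control libraries and 578 over the sugar libraries, and with unstranded counts the log2 fold change was 0.20 and the call was lost (q = 0.836).

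**Figure D3:**
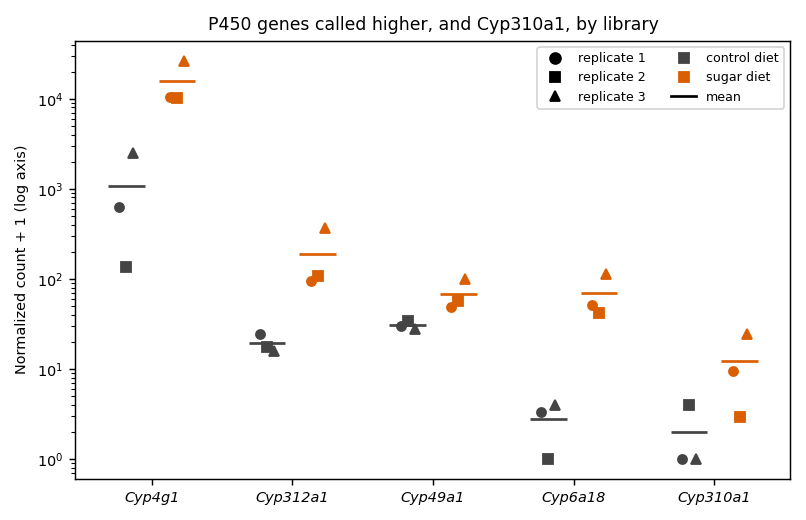
Normalized count plus 1 on a log axis of the 4 P450 genes called higher and of *Cyp310a1*. Symbols show the replicate, colours the diet and horizontal lines the group mean. The sugar libraries lie above the control libraries for the 4 genes called, and the third sugar library is the highest for each.

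*Cyp310a1* had the largest fitted rise among the P450 genes that were not called. Its raw counts were 0, 2 and 0 on the control diet and 9, 2 and 24 on the sugar diet, and the second sugar library overlapped the controls. The fitted log2 fold change of 3.77 ± 1.60 had q = 0.125 by DESeq2. With libraries left out it ranged from 2.57 without sugar replicate 3 (q = 0.948) to 6.11 without control replicate 2 (q = 0.025), the only library whose loss gave a call. With unstranded counts it was 0.43 (q = 0.819). With so few counts a difference could not be resolved at this depth.

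Every sugar library was above every control library for 6 of the 83 tested P450 genes, against 19.9% of all genes tested. Besides the 4 genes called, these were *Cyp6a14* and the pseudogene *Cyp6a15Psi*, both with at most 22 counts in any library. The opposite order held for 5 genes, *Cyp28a5*, *Cyp305a1*, *Cyp4g15*, *Cyp6a23* and *Cyp6g2*, against 6.67% of all genes.

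No P450 gene fell by the DESeq2 test, and the values nearest to a fall were small. *Cyp305a1* of the CYP2 clan had 937.4, 1073.7 and 1044.3 normalized counts on the control diet and 937.1, 762.1 and 717.7 on the sugar diet, a log2 change of −0.34 ± 0.14 (DESeq2 q = 0.114, edgeR q = 0.13). The highest sugar value lay just below the lowest control value. *Cyp28a5* had 1191, 1183 and 1125 on the control diet and 1064, 931 and 894 on the sugar diet, a log2 change of −0.28 ± 0.12 (DESeq2 q = 0.123). It was the 1 gene that edgeR called lower (q = 0.0925). Both genes also passed the equivalence test at the 1.5-fold margin. *Cyp6g2*, at 15.7 to 19.7 normalized counts on the control diet and 2.8 to 12.2 on the sugar diet, gave −1.17 ± 0.75 (q = 0.487), which its few counts did not resolve.

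The number of genes called lower depended on 1 library. Without sugar replicate 1 DESeq2 called 5 P450 genes lower, *Cyp28a5*, *Cyp28d1*, *Cyp305a1*, *Cyp309a1* and *Cyp6t1*. The count over all genes rose too, from 77 to 496, or 3.5% of the genes tested in that fit. Leaving out any other library gave 0 P450 genes.

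Several of these genes varied between libraries of the same diet. They were picked after their values were seen, and the split of the libraries was not tested. With all libraries none was called by DESeq2 (q = 0.915 for *Cyp309a1*, 0.978 for *Cyp309a2*, 0.739 for *Cyp6t1* and 0.565 for *Cyp9h1*). *Cyp309a2* had 228.9, 225.3 and 126.0 normalized counts on the control diet and 270.5, 104.1 and 173.4 on the sugar diet. *Cyp6t1* had 165.6, 207.2 and 101.4 on the control diet and 186.9, 87.2 and 81.4 on the sugar diet. Both were high in control replicates 1 and 2 and sugar replicate 1, and low in the other 3 libraries, so the pattern crossed the diets. Its neighbour *Cyp309a1* and *Cyp9h1* had the same split. Of 4 head fat body markers, *Lsp2*, a storage protein gene, and *apolpp*, which encodes the main lipid carrier, had the same split. *Lsp2* had 10962, 10070 and 84.6 on the control diet and 10702, 49.7 and 38.7 on the sugar diet. The other markers, *to* and *fit*, did not follow it. *to* had 150.8, 142.1 and 242.1 on the control diet and 185.9, 166.9 and 196.6 on the sugar diet, and *fit* had 17.2, 34.8 and 25.6 against 20.5, 3.7 and 3.9. The whole list, of which *apolpp* made up most, summed to 158254 to 207438 on the control diet and 126109 to 196595 on the sugar diet. The part of fat body RNA in the P450 values was not tested.

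**Figure D4:**
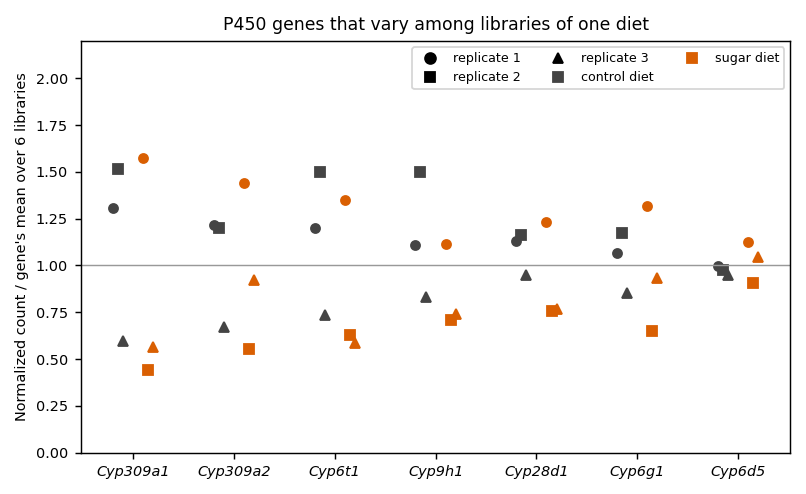
Normalized count of 7 P450 genes divided by each gene's mean over the 6 libraries, by diet (colour) and replicate (symbol). *Cyp309a1*, *Cyp309a2*, *Cyp6t1* and *Cyp9h1* are high in control replicates 1 and 2 and sugar replicate 1, whereas *Cyp6d5* stays close to its mean in all 6 libraries.

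Of 9 P450 genes known for insecticide resistance or for induction by foreign chemicals, 8 were tested, and DESeq2 called none with all libraries. The equivalence test was passed by 6, all averaging 50 or more normalized counts, as it was by 72.6% of all such genes. *Cyp6g2* and *Cyp12d1-p*, which did not pass, had at most 19.7 and 21.2 normalized counts in any library. *Cyp6g1* had 2893, 3180 and 2315 normalized counts on the control diet and 3563, 1756 and 2527 on the sugar diet, so the sugar libraries enclosed the control range. Its log2 fold change was −0.10 ± 0.21 (DESeq2 q = 0.947). *Cyp6a2*, which is induced by phenobarbital, had 745, 730 and 836 against 851, 698 and 832, with a log2 fold change of 0.04 ± 0.14 (q = 0.971). The groups overlapped here too. The log2 fold change was −0.01 ± 0.24 for *Cyp6a8* (q = 0.998), −0.23 ± 0.15 for *Cyp6a9* (q = 0.508) and −0.12 ± 0.14 for *Cyp6w1* (q = 0.838). All 3 passed the equivalence test. *Cyp6a8*, with 143.7 to 239.2 normalized counts on the control diet, varied more there than the others relative to its mean. On the sugar diet, with 171.4 to 197.8, it varied least of the 3. *Cyp12d1-p*, a near-identical neighbour of *Cyp12d1-d*, had 6.9 to 21.2 normalized counts over all libraries. Reads shared by the pair are not counted for either gene, so both values are uncertain.

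The 4 genes with roles in behaviour all passed the equivalence test, as did 72.6% of all genes averaging 50 or more normalized counts. *Cyp6a20*, which is tied to male aggression, had 893, 862 and 1118 normalized counts on the control diet and 867, 877 and 792 on the sugar diet, a log2 fold change of −0.18 ± 0.14 (DESeq2 q = 0.631). *Cyp6a17*, needed for normal temperature preference, had 773, 783 and 842 against 716, 750 and 826, a log2 fold change of −0.07 ± 0.12 (q = 0.928). *Cyp6a23*, a close relative of *Cyp6a17* that lies beside it, had 244.5, 269.2 and 245.1 against 229.6, 241.9 and 223.7, a log2 fold change of −0.12 ± 0.17 (q = 0.88). For *Cyp4d21* the log2 fold change was −0.10 ± 0.14 (q = 0.863). The control and sugar values overlapped for *Cyp6a20*, *Cyp6a17* and *Cyp4d21*, and those of *Cyp6a23* were just apart.

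Among the genes of steroid metabolism and development, *Cyp18a1*, which inactivates ecdysone, was well detected. It had 358.6, 349.3 and 316.9 normalized counts on the control diet and 316.1, 345.9 and 295.4 on the sugar diet, with overlapping groups and a log2 fold change of −0.10 ± 0.16 (q = 0.912, equivalence q = 0.00466). *Cyp303a1*, needed for sensory bristles, had at most 6 counts in any library. *Cyp301a1*, which acts in cuticle formation, had 14.1 to 28.7 normalized counts over all libraries, and *Cyp6t3*, which takes part in ecdysone synthesis in larvae, had 39.7 to 56.0. The log2 fold changes of both were 0.01 ± 0.54 and −0.01 ± 0.37. *Cyp311a1* was detected at 10.9 ± 0.642 RPKM on the control diet and passed the equivalence test. Outside that group, *Cyp4e2* at 29.2 ± 2.58 RPKM also passed it. *Cyp4d1*, outside it too, had 1.09 ± 0.234 RPKM and met neither call, with a log2 fold change of 0.06 ± 0.40 (q = 0.989). Of the ecdysone synthesis P450 genes with other symbols, 5 of 6 were found and none of the 3 tested was called. The highest of them, *shd*, which makes the active hormone, had 42.2 to 116.1 normalized counts on the control diet and 37.2 to 124.9 on the sugar diet, with a log2 fold change of 0.31 ± 0.49 (q = 0.906).

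The partner genes of the P450 enzymes were also examined. *Cpr*, the reductase that supplies electrons to the microsomal enzymes, had 3270, 3260 and 3552 normalized counts on the control diet and 3760, 3888 and 5285 on the sugar diet. All sugar values were above all control values, with a log2 fold change of 0.36 ± 0.14 (DESeq2 q = 0.0728), but edgeR did not call it (q = 0.16). It was the only one of 6 electron donors and partners called, and 4 of the 6 were unchanged. Among 11 regulators of detoxification genes DESeq2 called none and 10 were unchanged, against 6.59% higher and 72.6% unchanged among all genes averaging 50 or more normalized counts.

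Marker genes of several tissues moved in the same direction as *Cyp4g1*. Of 5 oenocyte markers 3 were found, and their summed normalized count was 78.1, 75.6 and 241 on the control diet and 507, 968 and 2233 on the sugar diet. *FASN2*, a fatty acid synthase, and *FarO*, a reductase, were called higher, and *eloF*, an elongase of females, had at most 6.0 normalized counts. As for *Cyp4g1*, the highest library of each diet was replicate 3. All 10 accessory gland markers were higher, with sums of 7.6 to 57.8 on the control diet and 1451 to 4033 on the sugar diet. So were 12 of 14 testis markers, with sums of 8980 to 9203 and 10988 to 15336. Most of each testis sum came from *bol*, with 8698 to 8888 normalized counts on the control diet and 8050 to 8878 on the sugar diet. *bol* and *twe* were the testis markers not called, and the median log2 fold change of the testis list was 6.42. Of 22 midgut markers tested 16 were higher, with sums of 267 to 1192 and 2890 to 8519. In the midgut list *deltaTry* and *gammaTry* were at 0 in all libraries. Most of each control midgut sum came from *Amy-p* (87.6 to 443.7) and *Amy-d* (151.6 to 405.4), which were not called (DESeq2 q = 0.934 and 0.991). Of 3 Malpighian tubule markers 1, *Uro*, was higher, and the sums were 268 to 273 and 284 to 407. Of 7 markers of female tissues 3, the yolk protein genes, were lower, and the sums were 940 to 44654 and 626 to 772. Among all genes tested, DESeq2 called 14% higher and 0.54% lower. The part of RNA from these tissues in the rise of *Cyp4g1*, *Cyp312a1*, *Cyp6a18* and *Cyp49a1* was not tested.

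**Figure D5:**
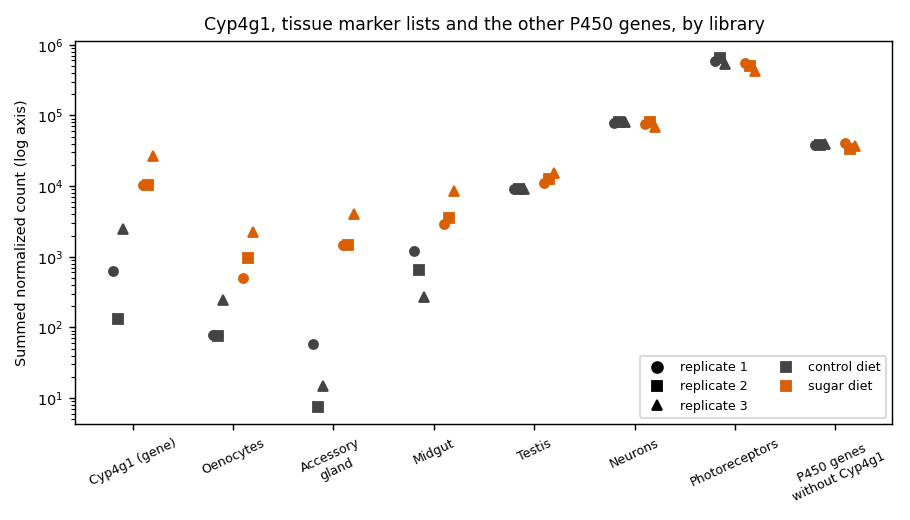
Normalized count of *Cyp4g1*, summed normalized counts of tissue marker lists and the sum of the other P450 genes, on a log axis, by diet (colour) and replicate (symbol). The oenocyte, accessory gland, midgut and testis sums are higher in every sugar library than in every control library, whereas neuron markers and the other P450 genes overlap between diets.

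On the strand opposite to each gene, tested in the same way with DESeq2, 2 P450 genes were higher on the sugar diet, *Cyp4e1* and *Cyp4g1*. Among all genes tested on that strand 0.551% were. Many P450 genes had too few counts there to be given a q, so the 2 are not a share of 83.

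Neither of the cyclophilin genes selected by the rule was called changed. *Cyp1* had 211.0 ± 25.03 RPKM and *Cyp40* had 6.86 ± 0.996 RPKM on the control diet (SD, n = 3), and both passed the equivalence test.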

How the data were processed

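The deposited values were raw read counts per gene for 6 libraries. The authors discarded reads with low quality scores, aligned the rest with STAR to dm6 and, by their methods, counted them with HTSeq. The deposited tables have the column layout of STAR, and the submitters' processing notes also list SAMtools 1.4, DESeq2 1.18.0 and BDGP6. The STAR version, the annotation release and any removal of duplicate reads are not given in the sources used here. Rows for reads assigned to no gene, 40.9 to 47.3% of the total, were left out. The sense column, with 97.2% of stranded counts, was used. Read counts can include PCR copies, so the counting interval and the floor describe counting error alone.

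Symbols were matched to 17215 of 17489 identifiers, and coordinates and exon lengths were taken from Ensembl annotation on BDGP6, which has dm6 coordinates. One further symbol that fits the rule, *Cyp6a21*, had no identifier in the tables and was not analysed here. No sequences are printed.

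All genes with at least 1 sense count were fitted with DESeq2 1.42.0 in R 4.3.3 (two-sided Wald test, Benjamini-Hochberg q < 0.1), as in the study. Equivalence was tested with 2 one-sided normal tests on the DESeq2 estimate and its standard error, at a margin of 1.5-fold and q < 0.1. edgeR 4.0.16 (quasi-likelihood, TMM) was the alternative. The script was tested on simulated data. Same-diet library pairs differed beyond sampling noise (chi-square per degree of freedom 19.4 to 56.4), so none was counted as a duplicate. The DESeq2 and edgeR p-values weigh the diet difference against the spread among the 3 replicates of each diet. Both tools share information on that spread across genes. The permutation p ranks the observed split of the library sums among all possible splits.

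Values are named for genes called, the 10 highest on the control diet, genes detected only on the sugar diet and members with a role known from flies. Genes named outside this rule were chosen after their values were seen. The members, gene lists and tests were chosen with earlier results of these data known. Alternatives were another normalization, a filter of at least 10 counts in 3 libraries, unstranded counts, a stricter q of 0.05, a margin of 2-fold, detection floors of 1 and 10 counts, a replicate block and leaving out each library. The sum without *Cyp4g1* was added after the data were seen.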

Additional observations from a re-analysis of the deposited data

Results flagged for a closer look

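The opposite-strand counts of *Cyp4e1* and *Cyp4g1* were higher on the sugar diet, in a column that no other comparison used. For *Cyp4e1* the opposite-strand counts were 15, 4 and 3 on the control diet and 99, 32 and 74 on the sugar diet, a log2 fold change of 3.28 (q = 1.96e-06). The exons of *Cyp4e1* overlap those of *Mal-A1*, a maltase gene on the other strand. *Mal-A1* itself had 104.7, 46.9 and 29.5 normalized counts on the control diet and 951.0, 323.4 and 1366.6 on the sugar diet. For *Cyp4g1* the opposite-strand counts were 3, 0 and 4 on the control diet and 39, 34 and 45 on the sugar diet, a log2 fold change of 4.12 (q = 1.33e-05). No annotated exon lies on the opposite strand of this gene. The sense counts of *Cyp4g1* rose in the same libraries. Unscaled, they were 803, 88 and 2522 on the control diet and 11310, 10979 and 27350 on the sugar diet. In each library they far exceeded the opposite-strand counts. Over all genes, 97.2% of stranded counts were sense. Whether the opposite-strand reads of this gene changed apart from its sense reads was not tested.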

How the results depend on the processing

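*Cyp4g1*, *Cyp312a1* and *Cyp6a18* were called higher under every alternative in which they were fitted. The count of genes called higher stayed between 3 and 5, but its members changed. Without control replicate 3, *Cyp49a1* was lost and *Cyp4aa1* was called higher, a gene not called with all libraries (log2 fold change 0.58, DESeq2 q = 0.338). The median log2 fold change stayed below zero, between −0.06 and −0.02 with libraries left out. The count called lower was 1 with edgeR and ranged from 0 to 5 with libraries left out. The count detected only on the sugar diet was 0 with a floor of 1 count and 0 with unstranded counts, and ranged from 1 to 2 with libraries left out, when *Cyp6a16*, *Cyp313a3* or *Cyp310a1* joined *Cyp6a18*. The count unchanged was 59 with a 2-fold margin and 41 with the filter of at least 10 counts in 3 libraries. It was 32 at q under 0.05 and 30 with a replicate block. With libraries left out it ranged from 25 (without control replicate 3) to 39. The log2 ratio of the summed count, 0.403, became −0.067 without *Cyp4g1*. Samples with the same number did not deviate together (correlations of 0.033, −0.037 and −0.10). No pairing by number was seen, but these correlations cannot exclude one. With a replicate block 3 genes were called higher, *Cyp49a1* being lost (q = 0.231), and *Cyp6a8* changed sign (0.02). For *Cyp4g1* the log2 fold change with the block was 4.54 (DESeq2 q = 1.27e-07). With unstranded counts *Cyp301a1* (−0.08) and *Cyp6t3* (0.03) changed sign. With libraries left out, 12 of the 30 named genes, none of them called, had log2 fold changes that crossed zero. The other P450 genes were not followed in this way. They ranged from −0.59 to 0.16 for *Cyp12d1-p*, −0.28 to 0.17 for *Cyp301a1*, −0.10 to 0.03 for *Cyp311a1*, −0.09 to 0.36 for *Cyp313a1*, −0.09 to 0.26 for *Cyp4d1*, −0.15 to 0.06 for *Cyp4e2*, −0.01 to 0.13 for *Cyp6a2*, −0.17 to 0.18 for *Cyp6a8*, −0.38 to 0.12 for *Cyp6g1*, −0.13 to 0.12 for *Cyp6t3*, −0.28 to 0.01 for *Cyp6w1* and −0.06 to 0.08 for *Cyp9f2*. The cause was not tested. The 25 genes under 1 RPKM had a median standard error of 0.79 on the log2 scale, against 0.14 for those over 10 RPKM, and 3 of them were called.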
